A study of Mus musculus with 13 samples.

Results

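Studied here are 6199 stretches of chromatin in LβT2 cells that carried acetylated histone H3 at lysine 27 (H3K27ac) with and without activin and on which neither FOXL2 nor SMAD2/3 was called. H3K27ac peaks of 4 libraries were merged where they shared at least 1 bp, which gave 53008 regions. Of these, 24356 had a peak in all 4 libraries and are called constant here. A constant region was kept when its merged width was under 5000 bp (22559 regions), when all its peaks lay over 1000 bp from the start of the nearest gene in the authors' annotation tables (14899 regions), and when it overlapped no peak of any of 8 FOXL2 and SMAD2/3 lists. The 6199 factor-free regions are 25.5% of the constant regions and 41.6% of the constant distal ones under 5000 bp. The other constant distal regions overlapped a FOXL2 peak but no SMAD2/3 peak (5902 regions) or overlapped a SMAD2/3 peak (2798 regions, 2415 of them with FOXL2 too). The regions were thus chosen by measured values, namely the presence of H3K27ac peaks, their width and distance, and the absence of factor peaks, so these are given as descriptions and were not tested.

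LβT2 is a mouse pituitary cell line of the gonadotrope type, the cell that makes the gonadotropins. All cells carried a lentiviral cassette with constitutive GFP and doxycycline-inducible FLAG-tagged mouse FOXL2, a forkhead factor, so both groups held induced FLAG-FOXL2 and the vehicle cells are not cells without it. After 24 h of recovery the cells were given doxycycline for 48 h, kept for 2 h in medium with 2% serum, and treated for 1 h with vehicle or with 1 nM activin A. Chromatin was precipitated for H3K27ac, FLAG and SMAD2/3 in duplicate per treatment, with 3 plates combined per sample, and the Protein-A control was not analysed here. FOXL2 peaks are thus those of the tagged protein, and any untagged FOXL2 was not read. Factor-free here means without a called peak of tagged FOXL2 or of SMAD2/3. Nothing in the labels says that the 2 samples of a group came from separate cultures beyond their plates, so the spread between them may be partly technical.

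H3K27ac is laid down by the acetyltransferases p300 and CBP and marks active promoters and active enhancers, the distal elements from which transcription factors raise the activity of a gene. Activin binds type II and type I receptors that phosphorylate SMAD2 and SMAD3, which then enter the nucleus with SMAD4, and in gonadotropes SMADs and FOXL2 act together on the gene of the follicle-stimulating hormone β subunit. Active elements without FOXL2 and SMAD2/3 can be held by other factors of the cell, none of which was measured here. Many CpG-rich promoters carry H3K27ac whatever the cell type.

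The H3K27ac lists held 38995 to 41763 peaks and the depth in reads is unknown, since peak lists carry none. SMAD2/3 peaks numbered 605 and 144 in vehicle cells against 7784 and 5970 in activin cells, so absence of SMAD2/3 was decided almost wholly by the activin lists. Of 8 gonadotrope marker genes, 6 had an H3K27ac peak at a start in all 4 libraries. For Lhb and Nr5a1 it lay within 1000 bp of the start in the authors' tables. For Cga, Gnrhr, Lhx3 and Isl1 it lay only at a start of the RefSeq annotation. Fshb and Pitx1 had none in any, and no RefSeq start was read for Pitx1. None of the 16 markers of other pituitary cells, fibroblasts, endothelium and immune cells had one in all 4 libraries, and Pecam1 had one in 1 library. No RefSeq start was read for Gh, Ghrhr, Col1a1, Pecam1 and Cdh5. H3K27ac was measured in bulk, so fewer cells with the mark and less mark per cell cannot be told apart.

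The label distal held for only part of these regions. The deposited distances use a single start per gene, and they were explained by 1 start for 20204 of 20204 genes with enough peaks to check. In the 12 annotation tables, 15139 of 48968 peaks (30.9%) that were classed at a promoter lay over 1000 bp from that start. Of the 6199 factor-free regions, 1661 (26.8%, 95% Wilson interval 25.7 to 27.9) lay at another annotated start, in the sense that 1337 held a peak that the authors' tables class as promoter, 1125 overlapped a RefSeq start window (250 bases before to 50 after the start), and 801 did both. The start itself need not lie inside such a region. The share was 14.1% of the FOXL2 regions without SMAD2/3 and 6.29% of the SMAD2/3 regions. The remaining 4538 factor-free regions held no such peak and overlapped no such window, and are called away from starts here. They can still lie close to a start, as the region in intron 1 of Angptl6 does at 1001 bp. Results are therefore given for both subsets, a split that was made after the data were seen.

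Sequences before starts at the strongest factor-free regions are shown here because they let a reader see the CpG content of such stretches. The start itself lies just outside the region for Gm31862 and Oxsr1, and inside the region for the other 4. Only part of the printed stretch overlaps the region for Gm31862, D17H6S56E-5 and Oxsr1 (148, 136 and 246 of 250 bases). The 250 bases before a RefSeq start (assembly GRCm38.p6) are given 5′ to 3′ on the strand of the gene, in lower case with every CpG in capitals. The first 3 belong to the first 3 regions by strength. The last 3 are protein-coding starts whose 250 bases lie wholly inside a factor-free region and were chosen after the values were seen.
Gm31862, chr11:98775161-98775410, plus strand: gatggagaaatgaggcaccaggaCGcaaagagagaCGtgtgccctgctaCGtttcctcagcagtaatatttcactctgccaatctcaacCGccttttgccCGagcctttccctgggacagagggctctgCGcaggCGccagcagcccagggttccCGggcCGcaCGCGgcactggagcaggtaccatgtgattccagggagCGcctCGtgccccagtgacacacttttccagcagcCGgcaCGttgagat
D17H6S56E-5, chr17:35000747-35000996, minus strand: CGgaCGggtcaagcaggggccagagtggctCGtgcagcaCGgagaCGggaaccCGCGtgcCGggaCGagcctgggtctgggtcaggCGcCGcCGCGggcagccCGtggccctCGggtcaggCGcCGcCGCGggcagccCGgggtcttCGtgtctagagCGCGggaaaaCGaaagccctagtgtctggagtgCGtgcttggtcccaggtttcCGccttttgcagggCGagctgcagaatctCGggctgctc
Oxsr1, chr9:119322428-119322677, minus strand: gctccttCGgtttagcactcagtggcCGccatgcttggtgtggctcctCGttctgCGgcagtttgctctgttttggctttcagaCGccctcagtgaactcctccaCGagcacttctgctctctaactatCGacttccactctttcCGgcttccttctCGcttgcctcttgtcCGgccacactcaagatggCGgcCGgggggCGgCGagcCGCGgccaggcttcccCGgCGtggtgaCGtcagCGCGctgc
Prdm10, chr9:31280299-31280548, plus strand: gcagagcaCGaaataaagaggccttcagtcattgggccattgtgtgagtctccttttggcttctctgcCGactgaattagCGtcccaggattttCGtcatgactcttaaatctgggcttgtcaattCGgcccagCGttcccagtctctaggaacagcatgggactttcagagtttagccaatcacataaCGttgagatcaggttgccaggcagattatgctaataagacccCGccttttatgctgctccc
Atf1, chr15:100227609-100227858, plus strand: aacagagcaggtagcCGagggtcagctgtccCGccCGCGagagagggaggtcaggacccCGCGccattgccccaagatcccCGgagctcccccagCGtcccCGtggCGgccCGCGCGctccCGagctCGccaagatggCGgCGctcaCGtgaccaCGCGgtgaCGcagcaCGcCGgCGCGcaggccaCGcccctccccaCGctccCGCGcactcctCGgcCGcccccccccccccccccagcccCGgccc
Etv6, chr6:134035450-134035699, plus strand: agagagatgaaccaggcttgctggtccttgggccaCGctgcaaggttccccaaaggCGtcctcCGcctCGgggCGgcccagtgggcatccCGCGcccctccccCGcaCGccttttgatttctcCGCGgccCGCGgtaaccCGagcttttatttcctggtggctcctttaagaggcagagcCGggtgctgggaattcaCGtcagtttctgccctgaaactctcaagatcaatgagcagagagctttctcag

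The window of Gm31862, a long non-coding RNA whose window overlaps the Nr1d1 region, held 15 CpGs at 60.4% GC, and 148 of its 250 bases lay inside the region. That of D17H6S56E-5, which overlaps the Vars region with 136 of its 250 bases, held 28 CpGs at 70.4% GC. Oxsr1 encodes a kinase that regulates cation-chloride cotransporters, and its window held 21 CpGs at 62.4% GC. Prdm10 stood apart with 8 CpGs at 48.8% GC, against 32 at 77.6% for Atf1, a transcription factor of the CREB family, and 16 at 60.4% for Etv6, an ETS family repressor.

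Over all of them, 1362 RefSeq start windows (250 bases before to 50 after the start) of 1179 genes overlapped a factor-free region. Their median GC content was 62.3%, with a median of 22 CpGs. A CpG-rich window, with over 50% GC and an observed to expected CpG ratio over 0.6, made up 69.5% of them (95% Wilson interval 67.0 to 71.9). CpG-rich windows were 60.7% of those on FOXL2 regions without SMAD2/3, 41.7% of those on SMAD2/3 regions and 33.3% of all 32851 windows. On constant regions at the starts that the deposited distances use, they were 76.2%. In this share the windows on factor-free regions thus lay nearer to those promoters than to the genome's windows at large, as did those on FOXL2 regions. They cover only the 1125 of 6199 factor-free regions that overlap a start window, and sequence content was not counted for the rest.

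Motifs were matched on both strands of the same 300 bases. The forkhead motif TGTTTAC was present in 1.10% of the windows on factor-free regions (15 of 1362), in 3.92% on FOXL2 regions without SMAD2/3, in 2.26% at the constant start-proximal regions and in 3.65% of all windows. At start-proximal regions without either factor it was present in 1.21% (95% Wilson interval 0.913 to 1.60), within counting error of the factor-free regions' 1.10% (0.669 to 1.81). The ETS motif CCGGAAG was present in 17.1% on factor-free regions, against 16.6% on FOXL2 regions, 23.9% at start-proximal regions (24.3% of those without either factor) and 8.86% of all windows. The SMAD motif CAGACAG was found in 5.36%, against 8.24%, 5.99% (6.25% without either factor) and 7.73%. The other SMAD motif, GTCTAGAC, was found in 0.441% (6 of 1362), against 0.135%, 0.231% (0.176% without either factor) and 0.213%. Median GC content was 62.3%, 58.3%, 61.7% (62.3% without either factor) and 52.7% in the same order, and its part in these shares was not tested. On SMAD2/3 regions, with only 151 windows at a median GC content of 55.0%, TGTTTAC was present in 5.30% and CCGGAAG in 5.96%. CAGACAG was present there in 9.27% and GTCTAGAC in 0.662%. Motifs of other factors were matched too and are not described. A match is a description of the letters and not a bound site.

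The strength of a region was read as its percentile rank, by the −log10 q of its strongest peak, among the same 24356 constant regions in each library, with 100 for the strongest. The factor-free regions had a median rank of 35.6 and 35.9 with vehicle, against 35.7 and 36.1 with activin. All 4 values lay between 35.6 and 36.1, and the groups overlapped. The mean over libraries was 35.8 ± 0.206 for vehicle and 35.9 ± 0.302 for activin (SD, n = 2 each), a shift of 0.14 points that is smaller than the pooled SD of 0.259 (exact two-sided permutation test, p = 0.667). This test over 6 labellings cannot give less than 0.33. Ranks are relative, so a class can hold its rank while the mark changes everywhere. Members also needed a peak in all 4 libraries and no factor peak. Regions that gained or lost their peak with activin, or where a factor was called, were thus left out beforehand. The test cannot tell a stable class from one chosen to be stable, and the part of this choice in the small shift was not tested.

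**Figure D1:**
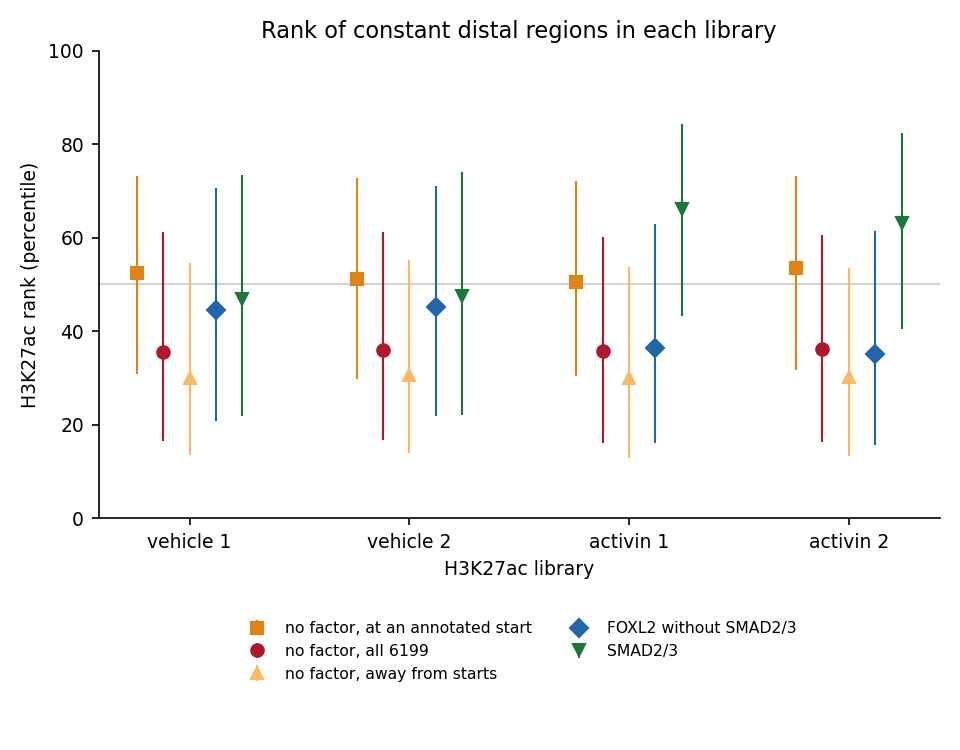
Median percentile rank of H3K27ac (y axis, 100 = strongest of 24356 constant regions) in each of the 4 H3K27ac libraries (x axis), with bars from the lower to the upper quartile of regions. The factor-free regions stay at 35.6 to 36.1, their subset at starts near 52 and the rest near 30, while FOXL2 regions without SMAD2/3 lie lower and SMAD2/3 regions higher in the activin libraries.

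Within this selection, the median rank of both subsets shifted by less than the spread between replicates. At starts the vehicle median rank was 51.9 ± 0.920 and the activin one 52.0 ± 2.11 (SD, n = 2 each), and away from starts it was 30.3 ± 0.438 and 30.1 ± 0.261 (SD, n = 2 each). FOXL2 regions without SMAD2/3 had a median rank of 44.9 ± 0.483 with vehicle and 35.7 ± 0.910 with activin, a shift of -9.20 points. SMAD2/3 regions had 47.2 ± 0.408 and 64.6 ± 2.17, a shift of 17.4 points. The shift of the factor-free regions exceeded that of the FOXL2 regions by 9.34 points (pooled SD 0.879) and fell short of that of the SMAD2/3 regions by 17.3 points (-17.3, pooled SD 1.76). Both differences separated the 2 activin from the 2 vehicle libraries fully, with an exact permutation p of 0.33, the smallest that 4 libraries allow. Among regions 500 to 1500 bp wide the same differences were 5.03 and -13.5 points.

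Set against FOXL2 regions without SMAD2/3, the median rank of the factor-free regions differed by -8.93 and -9.32 points with vehicle, and by -0.643 and 1.07 points with activin. Among regions 500 to 1500 bp wide it differed by 2.79 and 1.83 points with vehicle, then 6.30 and 8.37 with activin. The lower rank with vehicle was thus not seen at like width. Those sets differed in their share at starts, with 29.4% of factor-free against 15.7% of FOXL2 regions. Away from starts, over all widths, the difference was -11.0 and -11.1 points with vehicle, then -2.66 and -1.13 with activin. Width and position were not matched at the same time. Over all widths, the sign of the difference in fold enrichment depended on the treatment. The median fold enrichment of the factor-free regions, the authors' ratio over background, was 3.97 and 3.70 for vehicle and 3.8 and 3.84 for activin. For FOXL2 regions without SMAD2/3 it was 4.09 and 3.84, then 3.66 and 3.67. The log2 ratio of the medians was -0.044 and -0.053 for vehicle but 0.053 and 0.068 for activin, so its sign differed with treatment. Its mean over both treatments was 0.006 ± 0.064 (SD, n = 4, exact sign-flip permutation test, p = 0.75). This SD holds the difference between treatments and is not the spread between replicates. Against SMAD2/3 regions the log2 ratio was -0.066 and -0.067 for vehicle, then -0.34 and -0.27 for activin. Its mean was -0.18 ± 0.14 (SD, n = 4, exact sign-flip p = 0.13, the smallest possible), and this SD too holds the treatment difference. Among regions 500 to 1500 bp wide it was not below 0 throughout. There it was 0.14 and 0.15 with vehicle, then -0.067 and -0.0060 with activin (mean 0.054, exact sign-flip p = 0.5).

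Factor-free regions were narrower, with a median merged width of 1302 bp (quartiles 791 and 1951) against 1913 bp for FOXL2 regions and 2695 bp for SMAD2/3 regions. Among regions 500 to 1500 bp wide, their fold enrichment exceeded that of FOXL2 regions in each library, by a mean log2 ratio of 0.10 (exact sign-flip permutation p = 0.13). Rank, width and position went together within the class. Of 2222 members with a mean rank under 25, 12.8% lay at a start and the median width was 1037 bp. For mean ranks of 25 to 50, 50 to 75 and over 75 the shares at a start were 27.2%, 39.1% and 46.1%, and the median widths 1318, 1618 and 1976 bp. Only 197 members (3.18%) had a mean rank of 90 or more, against 8.68% of all constant regions.

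**Figure D2:**
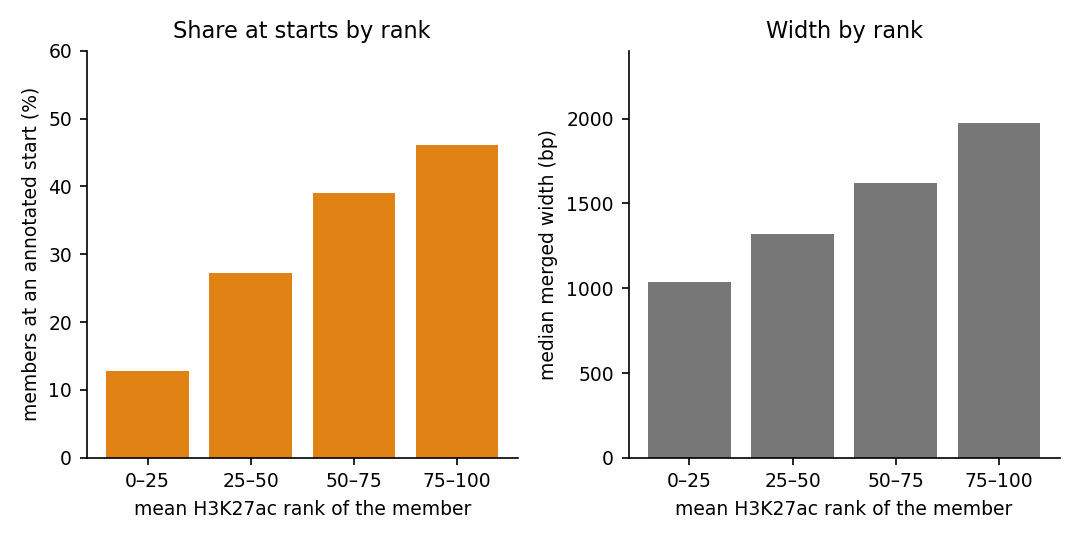
Share of factor-free regions at an annotated start (a promoter-class peak or an overlap with a RefSeq start window), in percent (left), and their median merged width in bp (right), by mean H3K27ac rank over 4 libraries (x axes, percentile). The share at starts climbs from 12.8% to 46.1% and the width from 1037 to 1976 bp.

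Region by region, 1546 members (24.9%, 95% Wilson interval 23.9 to 26) had both activin ranks above both vehicle ranks, against a background of 27.9% of all constant regions. In the other direction 1735 members (28.0%, interval 26.9 to 29.1) ranked higher in both vehicle libraries, against a background of 30.4%. For 2918 (47.1%) the libraries overlapped. Both shares were below their background, and they differed from each other by 3.05 percentage points. A difference of at least 25 rank points on top of full separation was found upward in 322 members (5.19%, background 7.23%) and downward in 348 (5.61%, background 6.31%). The same orders held for 19.3% and 44.3% of FOXL2 regions without SMAD2/3 and for 62.2% and 18.2% of SMAD2/3 regions. Away from starts 25.4% of members ranked higher with activin and 29.6% with vehicle, and at starts 23.7% and 23.5%.

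Members kept their order between replicates more than between treatments. Spearman's rho of ranks over the 6199 members was 0.886 between the vehicle libraries, 0.856 between the activin libraries and 0.725 to 0.771 across treatments. These values describe regions that share their libraries, and their number of independent points is not known.

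The 8 strongest members ranked between 96.98 and 99.98 in all 4 libraries. First was a region over exon 1 of Nr1d1 (chr11:98774156-98775308), the gene of the heme-binding nuclear receptor REV-ERBα, which represses clock genes. Its ranks were 99.98 and 99.97 with vehicle against 99.23 and 99.01 with activin, and its fold enrichments 11.0, 10.7, 9.11 and 8.70. Both activin values lay below both vehicle values on each scale. The deposited distance sets it -4.31 kb from the start of Nr1d1 (negative is upstream), although it covers an annotated first exon.

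A region at the start of Vars (chr17:34999020-35000882), the gene of valyl-tRNA synthetase, ranked 99.76, 99.48, 99.17 and 99.65 in the order vehicle 1, vehicle 2, activin 1, activin 2. The third, of only 314 bp, was classed at the promoter of Oxsr1 (chr9:119322432-119322745) and had the highest fold enrichments of the 8, from 11.8 to 13.8. The authors' tables name the small nucleolar RNA gene Gm22729, -15.8 kb away, as its nearest start. The Oxsr1 ranks were 99.66 and 99.05 with vehicle against 98.62 and 98.99 with activin, so both activin values lay below both vehicle values, while the Vars ranks overlapped.

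Strong members away from starts were next. One lay -1.75 kb from Hspa8 (chr9:40797909-40800811), which encodes the constitutive chaperone HSC70, with ranks from 98.3 to 99.4. Another lay -11.1 kb from Nos3 (chr5:24351837-24355818), the gene of endothelial nitric oxide synthase, with ranks from 98.6 to 98.9. The last 3 lay near the non-coding gene Gm14267, the pseudogene Gm13983 and Vwa5b1, with mean ranks of 98.6, 98.1 and 98.1. Vwa5b1's region (chr4:138646075-138650478) was the only one of the 8 with both activin ranks above both vehicle ranks: 97.5 and 97.0 against 99.1 and 98.9.

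The members with the largest gain of rank under activin were weak without it. A region -11.2 kb from Smarcal1 (chr1:72571444-72572527), the gene of a DNA annealing helicase, ranked 10.8 and 2.2 with vehicle against 83.1 and 65.4 with activin, and its fold enrichment was 2.98 and 2.35 against 5.77 and 4.73. A SMAD2/3 peak lay 37 bp outside it. At the end of Pdcl3 (chr1:38995710-38998418, nearest start Gm37309) ranks were 19.2 and 12.1, then 79.1 and 82.2, with the nearest SMAD2/3 peak 124 kb away. In intron 3 of Mettl5 (chr2:69875760-69877066), the gene of a ribosomal RNA methyltransferase, they were 9.4 and 38.0, then 93.0 and 81.6, with a FOXL2 peak 29 bp and a SMAD2/3 peak 114 bp outside. The other 2 were in intron 18 of Fam179a (chr17:71720387-71722113), 565 kb from the nearest SMAD2/3 peak, and -7.94 kb from Slc25a48 (chr13:56430004-56430834), 56 bp from one. Of all 322 members with separated ranks and a gain of at least 25 points, 35 (10.9%, 95% Wilson interval 7.92 to 14.7) lay within 2 kb of a SMAD2/3 peak, against 280 of 6199 members (4.52%).

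The members with the largest loss of rank lay above the middle with vehicle and near the bottom with activin. A region near Gm37400 (chr1:14129473-14130579) ranked 78.3 and 71.2, then 3.8 and 9.1, and fold enrichment went from 5.55 and 4.73 to 2.57 and 2.83. A SMAD2/3 peak lay 74 bp outside it. A region -105 kb from Sdc2 (chr15:32814846-32817132), which encodes the heparan sulfate proteoglycan syndecan-2, ranked 68.8 and 83.0, then 2.9 and 20.1. In intron 3 of Dpp6 (chr5:27578653-27579713), an accessory subunit of Kv4 potassium channels, ranks were 68.8 and 80.9, then 9.9 and 14.8. The remaining 2 lay near Gm37645 and the pseudogene H2-Pb (chr17:34068439-34069050), the latter at 61.9 and 62.8, then 1.2 and 1.4. Of the 348 members with separated ranks and a loss of at least 25 points, 17 (4.89%, interval 3.07 to 7.68) lay within 2 kb of a SMAD2/3 peak. All 10 members named in these groups were chosen for this difference, so it is not tested.

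**Figure D3:**
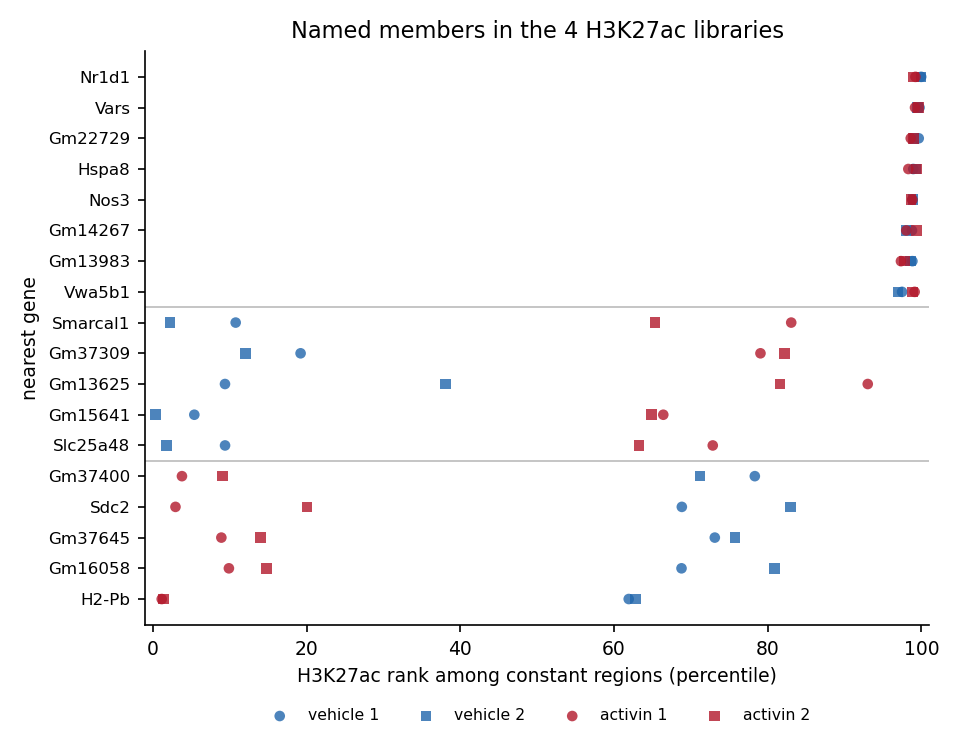
H3K27ac percentile rank (x axis) of 18 factor-free regions, named by nearest gene (y axis), in the 2 vehicle (blue) and 2 activin (red) libraries. From top to bottom are the 8 strongest, the 5 with the largest gain and the 5 with the largest loss of rank; the 8 strongest lie between 96.98 and 99.98.

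How far a member lay from a SMAD2/3 peak went with the order of its ranks. The median distance to the nearest SMAD2/3 peak was 57136 bp. Of 160 members under 0.5 kb from one, 61 (38.1%, 95% Wilson interval 31.0 to 45.8) ranked higher in both activin libraries and 35 (21.9%) in both vehicle libraries. The share higher with activin was 35.8% of 120 members at 0.5 to 2 kb, 33.1% of 828 at 2 to 10 kb, 26.4% of 1793 at 10 to 50 kb and 21.0% (19.7 to 22.5) of 3298 beyond 50 kb. The share higher with vehicle was 19.2%, 21.9%, 26% and 31.2% in the same order. Near SMAD2/3 the first share was thus above the background of 27.9%, and beyond 50 kb below it.

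From the nearest to the farthest class, the median rank shifted by 7.89, 3.15, 4.16, 1.60 and -2.50 points, so the order was not steady throughout. For members under 0.5 kb the median ranks were 22.9 and 23.3 with vehicle against 33.9 and 28.1 with activin. Beyond 50 kb they were 39.5 and 40.2, then 37.2 and 37.5. The shift was 4.74 points for the 1108 members within 10 kb and -2.50 points for those beyond 50 kb. The difference of 7.24 points (pooled SD 0.899) separated the treatments fully, with an exact permutation p of 0.33, the smallest possible. Among members 500 to 1500 bp wide it was 3.50 points, and without members at starts 6.59. The share at starts was 2.5% under 0.5 kb and 31.4% beyond 50 kb, and its part in the difference was not tested beyond that. The distance classes were set after the data were seen, and members beside a SMAD2/3 peak can flank the acetylated region that holds it.

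**Figure D4:**
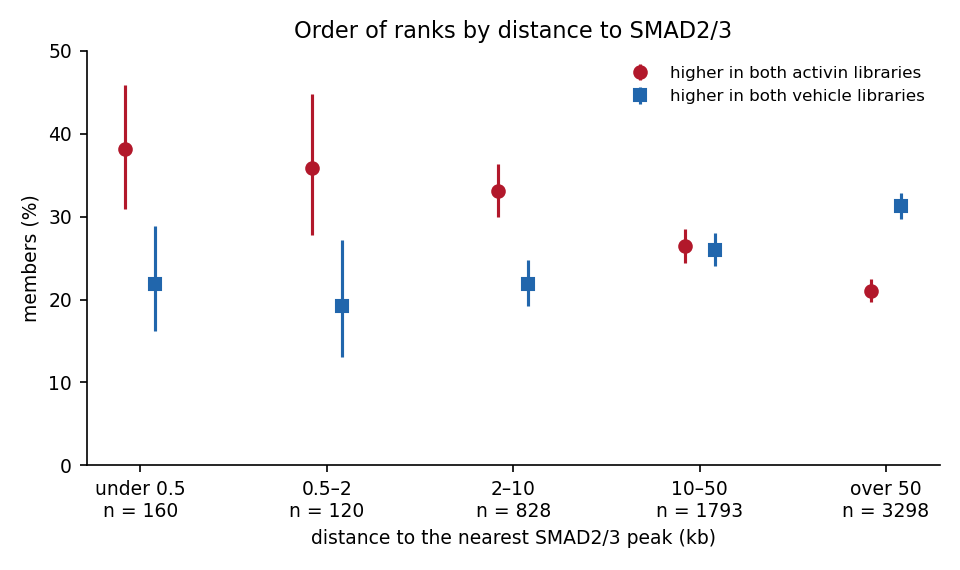
Share of factor-free regions (y axis, percent) ranked higher in both activin (red circles) or both vehicle (blue squares) libraries, by distance to the nearest SMAD2/3 peak in kb (x axis), with 95% Wilson intervals. The red share goes from 38.1% to 21.0% with distance and the blue share reaches 31.2% beyond 50 kb.

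Distance to FOXL2 showed no such order. The median distance to the nearest FOXL2 peak was 5106 bp (quartiles 1785 and 12216), with 585 members (9.44%) within 500 bp and 864 (13.9%) beyond 20 kb. The share higher with activin was 24.8% under 0.5 kb, 26.9%, 24.0% and 24.3% up to 50 kb, and 31.1% (25.4 to 37.4) of the 222 members beyond it. The 3 farthest were near Gm28587 on chromosome Y, 3523 kb from the nearest FOXL2 peak, and near Gm17361 and Rps12-ps6 on chromosome X, 1292 and 1169 kb away.

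By the authors' classes, the strongest peak of a member lay in an intron for 45.0% ± 0.241, between genes for 28.2% ± 0.060, at a promoter for 18.3% ± 0.152, in an exon for 5.13% ± 0.117 and at a transcript end for 3.42% ± 0.062 (SD, n = 4 libraries). The intergenic share was 4.89 points lower than in FOXL2 regions without SMAD2/3 (-4.89). The regions of both classes are the same in every library, so the libraries are not replicates of these shares and no test is given. Without regions at starts the difference was -0.42 points. The promoter share was 10.2 points higher. The nearest gene was protein-coding for 60.9% of members, against 56.6% of FOXL2 regions and 52.8% of SMAD2/3 regions. That gene had an H3K27ac peak at its own start for 27% ± 0.416 of members and 29.9% ± 0.496 of FOXL2 regions (SD, n = 4), a difference of -2.88 points. Only peaks within 1000 bp of the start used by the deposited distances were counted, so a member at another start of its gene did not count. Without regions at starts the difference was -1.89 points. Among protein-coding nearest genes it was -7.08 points, at 35.1% against 42.2%.

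Factor-free regions made up 50.5% of the constant distal regions on chromosome 4, 49.2% on chromosome 15, 48.6% on chromosome 11 and 47.8% on chromosome 7. The smallest shares on an autosome were 31.0% on chromosome 18 and 33.7% on chromosome 14. The median gap from a member to the next constant region was 5231 bp, and for 36.1% of members it was within 2000 bp, against 29.5% of FOXL2 regions and 25.8% of SMAD2/3 regions. Members were spread over 4577 nearest genes, of which 3411 had 1 and 34 had 5 or more.

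D430042O09Rik had the most, with 8 members over 141 kb at a mean rank of 20.2. Kcnn3, the gene of the small-conductance calcium-activated potassium channel SK3, had 7 over 73.0 kb, all in its introns. None of these 7 ranked higher with activin and 4 ranked higher with vehicle, against backgrounds of 27.9% and 30.4% of all constant regions. Their shifts ran from -33.5 to 6.62 points. Its intron 4 region (chr3:89645813-89649467) ranked 93.9 and 96.1 with vehicle against 87.1 and 88.6 with activin. Myt1l, the gene of a neuronal zinc finger factor, and Ccdc6 also had 7 each, at mean ranks of 31.2 and 28.5.

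Gm20479 had 6, all inside Sptbn4, the gene of a spectrin of axon initial segments, of which none ranked higher with activin and 4 with vehicle. Hlf, a PAR bZIP factor under clock control, had 6, of which 1 ranked higher with activin and 5 with vehicle. Gm23882 and Igsf21 had 6 each, at 1 against 1 and 0 against 0. The backgrounds of 27.9% with activin and 30.4% with vehicle apply to these genes too, and such small counts of neighbouring regions were not tested. Another 6 genes also had 6 members and are not described, since ties were taken by mean rank. Counting the gene that holds a member in an intron or exon, Sept9, a septin, led with 9 members and was followed by Gm20388, Kcnn3, Zmiz1, Kalrn, Camta1 and Kcnma1 with 8 each. In all 2125 genes held 2945 members in this way.

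Genes of the activin pathway were the nearest gene of a member more often than all protein-coding genes named in the authors' tables. The shares were 12 of 31 (38.7%) against 2794 of 15469 (18.1%), a comparison that was not tested. This was not particular to them. The lists described below had shares from 15.8% for gonadotrope genes to 44.4% for clock genes, with 40.7% for GnRH signalling and 33.3% for ion channel genes. In every list only genes named in the authors' tables were counted, which were 31 of the 35 activin pathway genes. The activin pathway genes had 14 members, with 6 ranked higher in both activin libraries and 2 in both vehicle libraries (42.9% and 14.3%). The background over all constant regions was 27.9% and 30.4%. Their median shift was 7.06 points, against -0.25 for the members of all protein-coding genes. Inhbb, which encodes the βB subunit of activin B and inhibin B, had the largest gain. Its region at 35.7 kb (chr1:119385505-119387650) ranked 24.8 and 18.9 with vehicle against 58.9 and 68.3 with activin, with a SMAD2/3 peak 2.10 kb away. Its second region at -2.05 kb stayed low and overlapped between treatments, at 28.8 and 4.2, then 16.9 and 19.4.

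Among the receptors, the region near Acvr1b, the type I activin receptor ALK4, ranked 91.8, 91.5, 93.8 and 91.5, without separation. The region in intron 1 of Acvr2b, a type II receptor, ranked 7.8 and 0.9, then 21.8 and 25.5. Of the SMAD genes, the Smad2 region ranked 57.9 and 58.8, then 65.6 and 69.3. Smad3 had a region at -79.9 kb that ranked 73.6 and 67.2, then 66.6 and 45.5, and one in intron 1 that overlapped between treatments.

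Inhibitors of the pathway lay on both sides. Skil, which encodes the SMAD co-repressor SnoN, had a region at -1.49 kb (chr3:31092911-31094191) with ranks of 82.8 and 91.3, then 96.9 and 96.2, and fold enrichments of 7.17 and 8.02, then 10.6 and 9.61. Its relative Ski ranked 6.8 and 16.1, then 21.9 and 44.1, in intron 2. The region near Fstl3, whose product binds activin outside the cell, went the other way, at 53.1 and 60.3, then 27.9 and 29.4. A region of the ubiquitin ligase gene Smurf1 ranked 13.4 and 20.7, then 23.3 and 23.6. Those of Tgfbr1, Smad6 and Id3 overlapped between treatments.

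Clock genes showed the opposite tilt. They are a transcriptional loop in which PER and CRY proteins repress their own activators, with NR1D1, NR1D2, BHLHE41 and HLF in linked loops. Of 18 listed genes, 8 (44.4%) were nearest to a member, with 17 members. Of these, 12 (70.6%) ranked higher in both vehicle libraries, against the background of 30.4%, and 4 (23.5%) in both activin libraries, against 27.9%. Their median mean rank was 62.3, against 35.6 for the members of all protein-coding genes, and 7 of the 17 had a mean rank of 80 or more, against 539 of all 6199 members (8.69%). The shifts of the strongest were small. Of those 7, 6 ranked higher with vehicle.

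Besides its exon 1 region, Nr1d1 had a region at -5.94 kb that ranked 94.8 and 94.9, then 86.1 and 87.8, and one in intron 1 that ranked 87.7 and 89.3, then 83.9 and 73.5. Per3's exon 1 region (chr4:151042739-151044605) ranked 96.2 and 97.1, then 90.3 and 95.2. Per2 had regions at 87.8 and 79.9, then 75.2 and 77.0, and at 35.4 and 51.0, then 26.3 and 17.9. The largest loss was -36.6 points at -43.5 kb from Hlf (chr11:90430370-90432826), from 84.1 and 77.2 to 47.6 and 40.5.

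The 4 that ranked higher with activin were near Cry2, Nr1d2, Per1 and Hlf. Cry2's region of 424 bp in an intron (chr2:92433563-92433986) ranked 21.2 and 8.9, then 43.7 and 71.2, the only clock gene member with a gain over 25 points. Per1's ranked 40.8 and 39.98, then 44.0 and 43.9. Members of 1 gene are neighbours on the chromosome and not independent: Hlf supplied 6 of the 17 and Nr1d1 3. When peaks up to 500 bp apart were merged, 8 members were left near clock genes and 6 of them ranked higher with vehicle.

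**Figure D5:**
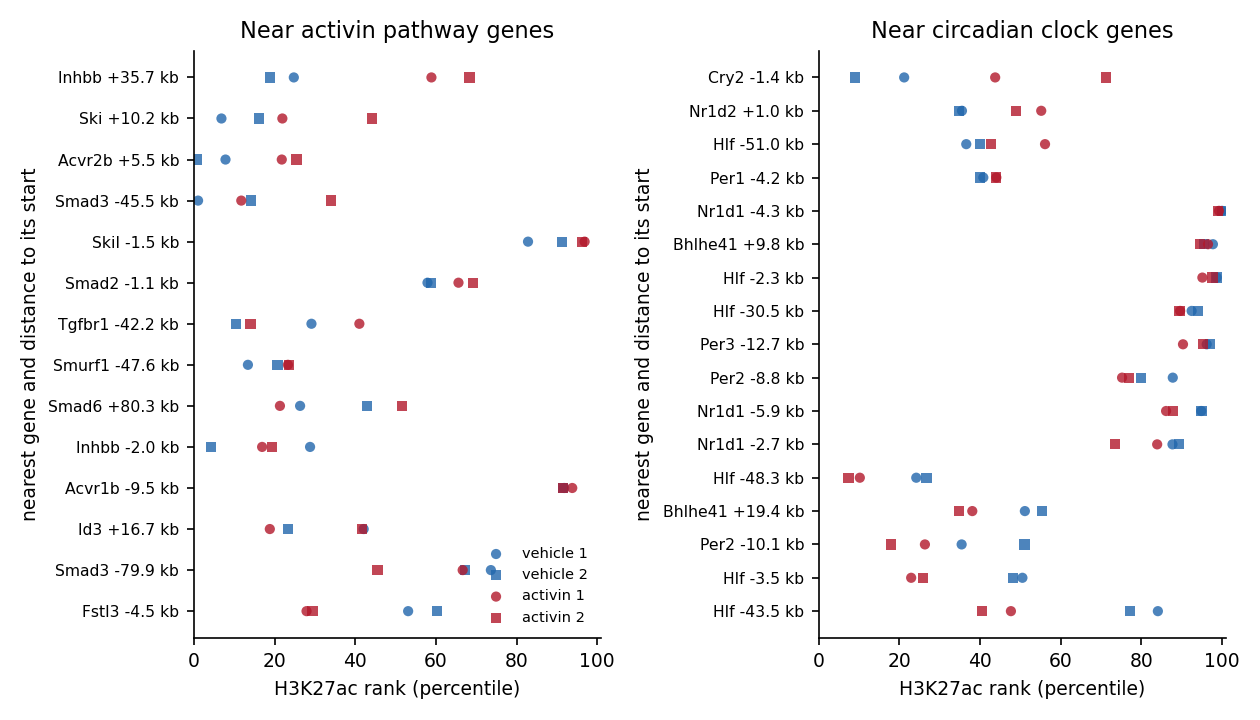
H3K27ac percentile rank (x axes) of the factor-free regions nearest to activin pathway genes (left, 14 regions) and clock genes (right, 17 regions), each named by gene and signed distance to its start in kb (y axes), with vehicle in blue and activin in red, circles for replicate 1 and squares for replicate 2. Of the clock gene regions 12 have both red symbols to the left of both blue ones; of the activin pathway regions 6 have them to the right.

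The other lists had 4 to 22 members each. Their counts stand beside backgrounds of 27.9% higher with activin and 30.4% with vehicle over all constant regions, and were not tested. Gonadotrope genes had 4 factor-free regions, near 3 of 19 genes (15.8%, against 18.1% of protein-coding genes): Lhx4 (2), Egr1 and Pitx1. The Lhx4 region at its own alternative start (chr1:155741289-155742661) was the strongest, at 69.1 and 68.9, then 64.6 and 57.1, and the only one with separated treatments. Lhx4 is a LIM homeodomain factor of pituitary development. No factor-free region had Fshb, Lhb, Cga or Gnrhr as its nearest gene.

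Signalling genes downstream of GnRH had 15 members near 11 of 27 genes, 3 ranked higher with activin and 2 with vehicle. The start region of Gnaq, the Gq subunit that couples the GnRH receptor to phospholipase C, ranked 78.8, 75.3, 72.7 and 75.3. Ion channel genes had 22 members near 8 of 24 genes, 3 higher with activin and 8 with vehicle (36.4%, near the background of 30.4%). Among them a region in intron 13 of the sodium channel gene Scn8a ranked 56.7 and 55.1, then 30.4 and 30.8, and a region in intron 3 of Kcnj6 ranked 51.7 and 49.9, then 78.8 and 74.3.

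Neuronal adhesion and guidance genes had 9 members near 6 of 27 genes, 3 higher with activin and 4 with vehicle. Their extreme was a region in intron 1 of Opcml (chr9:28588429-28590047), the gene of an IgLON adhesion protein, which went from 76.9 and 71.9 to 17.5 and 21.4. Its paralog and neighbour Ntm had one that went from 46.6 and 51.6 to 6.2 and 18.7. Chromatin enzyme genes had 7 members near 6 of 28 genes, 3 higher with activin and 2 with vehicle, led by a start region of the DNA methyltransferase gene Dnmt3a at 88.4, 84.5, 94.4 and 88.0. Secretory granule genes had 4 near 4 of 21, with 0 higher with activin and 2 with vehicle: Syt7, a vesicle calcium sensor, at 91.7 and 92.1, then 90.1 and 83.4, and Scg2, a granin, at 79.9 and 81.9, then 71.7 and 73.9.

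At the limits of the rule, the widest members were 4975, 4955 and 4941 bp wide, near Gm10538, Gm23152 and Gprc5c, and the narrowest regions left out for width were 5018, 5020 and 5086 bp wide, near Gm14267, Gpr137b and Kdm6b. Mean ranks were 96.6, 72.9 and 69.8 inside and 97.7, 49.9 and 72.0 outside. The members nearest to a start were in introns of Angptl6, Amd1 and Pkm, with mean ranks of 81.2, 12.6 and 84.2. Those just outside were at Maml1, Nudt6 and Gm2453, with mean ranks of 20.4, 20.6 and 66.0. In all, 81 constant distal regions without either factor were left out as too wide, and 5168 constant regions without either factor lay within 1000 bp of a start.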

How the data were processed

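H3K27ac, FLAG-FOXL2 and SMAD2/3 ChIP-seq peak lists and annotation tables of 12 libraries were used, 2 per antibody and treatment. Reads were aligned to GRCm38 (mm10) with Bowtie2, peaks called with MACS2 and annotated with HOMER, per the submitters' processing notes, with no versions given; lists are per library. The deposited values are the authors' fold enrichment (a ratio over background), −log10 of q, and a score; none is a read count, so depth is unknown. Scores were not used for results. Annotation classes and distances are those of the authors' tables.

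Members, gene lists and tests were chosen with earlier results of these data known. Peaks were merged at 1 bp overlap. A region's strongest peak by −log10 q was ranked among the 24356 constant regions of each library, so list length does not enter. Libraries were compared by exact two-sided permutation (2 against 2, smallest p 0.33) or sign flips over 4 libraries (smallest p 0.13). Shares have 95% Wilson intervals, which cover counting error only; neighbouring regions are not independent. Python 3.11.15, numpy 2.4.6, pandas 2.3.3 and scipy 1.17.1 were used, and merging, ranking and tests were checked on simulated data. The regions named are, by rule, the 8 with the highest mean rank, the 5 with the largest rise and fall among those with separated treatments, the 3 on each side of each limit, the 3 farthest from FOXL2, the 8 genes nearest to most members (ties by mean rank), and members nearest to genes of fixed lists. Motif and CpG counts over the regions themselves were not made, as no genome sequence was used here; they were made on RefSeq start windows instead. Alternatives were other thresholds, distances, gaps, ranking values, widths, factor definitions, each library left out and a replicate block.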

Additional observations from a re-analysis of the deposited data

How the results depend on the processing

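The median rank shift of the factor-free regions (0.14 points, within the replicate spread) had no stable sign. It was -1.63 with H3K27ac peaks of −log10 q of at least 5, -0.072 with no factor peak within 500 bp, -0.46 with factor regions called in both libraries of a treatment, -0.18 with all peaks over 5000 bp from a start, -0.056 with peaks merged across 500 bp, -0.84 ranked within the whole deposited list and -0.21 without regions at starts; leaving out a library gave -0.072 to 0.36. The log2 strength ratio against FOXL2 regions (0.006) was likewise -0.00023 at the stricter q, -0.00056 over 5000 bp from a start and -0.013 without regions at starts, with -0.015 to 0.026 when a library was left out. The causes were not tested.

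Of the counts, the stricter q left 2281 members, and leaving out a library, which needs fewer lists, gave 6816 to 7427. The share ranked higher with activin was 23.3% in whole-list ranks and 35.2% to 38.6% with a library left out, since fewer comparisons must then hold; the share higher with vehicle was 29.5% at the stricter q, 29.2% in whole-list ranks, 29.6% without regions at starts and 38.3% to 41.3% with a library left out. Of clock gene members, 6 of the 8 left when peaks were merged across 500 bp ranked higher with vehicle, against 12 of 17, and 12 to 13 of 17 with a library left out. Of activin pathway members, 2 of the 4 left at the stricter q ranked higher with activin, against 6 of 14, and 7 to 9 of 14 with a library left out.

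Replicate numbers did not pair the samples: deviations of same-numbered libraries correlated at r = -0.0389 over constant regions. As a replicate block they gave a shift of 0.14 (exact sign-flip permutation p = 0.5), with 30.9% of members higher with activin and 34.7% with vehicle in both pairs. The intergenic share, the shift against SMAD2/3 regions, the share of acetylated nearest starts and the near against far SMAD2/3 difference kept their sign under each alternative run. A peak in at least 3 of 4 lists gives no rank in every library, so no rank results were had. Depth is unknown, 2 libraries a group cannot reach p under 0.05, and a weak factor peak under the authors' threshold counts as absent.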
